A study of Rattus norvegicus with 6 samples.

Results

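Non-collagen matrix glycoproteins and proteoglycans were followed as 46 named genes in a table of 31368 genes of rat kidney: fibronectin, the fibrillins and fibulins, the matricellular proteins, the laminins, nidogens and heparan sulfate proteoglycans, and the small leucine-rich proteoglycans. They were chosen by gene name, and all 46 were present in the table. The RNA was from renal tissue of WT rats, in 3 libraries labelled CKD (chronic kidney disease) and 3 labelled Sham. The model was set up in male Sprague-Dawley (SD) rats at 8 weeks of age. How the disease was induced, and how long before sampling, was not stated. Nothing ties a library to an animal of its own, so the p-values below speak of the spread among libraries, part of which could be technical.

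The extracellular matrix of the kidney has a sheet-like part and a loose part. Basement membranes lie under the tubules, around capillaries and between podocytes and endothelium, and are built from laminin trimers of an alpha, a beta and a gamma chain, bridged to type IV collagen by nidogens and heparan sulfate proteoglycans. The interstitial matrix between tubules and vessels holds fibronectin, microfibrils of fibrillin with elastin, proteoglycans that coat collagen fibrils, and matricellular proteins that modulate how cells attach. Fibroblasts and pericytes are known as the main makers of the interstitial part. By these roles 16 of the genes were counted as basement membrane and 30 as interstitial.

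Library totals ran from 15918035 to 17503644 counts, and the genes of this set took 0.705%, 0.660% and 0.485% of all counts in CKD 1, 2 and 3, against 0.265%, 0.230% and 0.284% in Sham 1, 2 and 3. The share was higher in every CKD library. Levels below are CPM, a gene's counts scaled to library size with TMM factors, and differences are log2 fold changes of CKD over Sham with their standard error from edgeR's quasi-likelihood fit, adjusted by Benjamini-Hochberg over all genes tested. Scaling by library totals alone gave a median fold change over all genes of 0.41 in place of -0.008, and fold changes near 0 turn sign with it. Kidney markers were present in every library (7 genes, Umod and Slc34a1 among them, with 7478 to 10350 summed CPM in CKD and 9716 to 14330 in Sham), while urothelial markers stayed under 1 summed CPM, with Upk2 at 0 throughout. The mitochondrial genome took 8.83% to 10.8% of counts in CKD and 14.4%, 37.9% and 15.3% in Sham 1, 2 and 3, so that Sham 2 stood apart. Bulk tissue cannot tell more cells of a type from more RNA per cell.

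The promoters of 6 genes whose fold changes are given below are shown. RefSeq's table (build GRCr8) held an entry for 34 of the 46 genes, with 35 promoters, and the 250 bases before the start of transcription are printed 5′ to 3′ on the gene's strand. Pxdn, Fbn1 and Sparcl1 rose in CKD, while Fn1, Emilin1 and Mgp, which also rose, had no entry. Lamb1 and Lama5 are laminin chains with opposite signs of fold change, and Postn had the largest fold change. None of Lamb1, Lama5 and Postn was called by edgeR. Capitals mark matches on either strand to 3 motifs, which are CAGACA (a SMAD binding element), TGANTCA (AP-1) and GGGCGG (the GC box), and no match of a motif overlapped a match of another.
Pxdn: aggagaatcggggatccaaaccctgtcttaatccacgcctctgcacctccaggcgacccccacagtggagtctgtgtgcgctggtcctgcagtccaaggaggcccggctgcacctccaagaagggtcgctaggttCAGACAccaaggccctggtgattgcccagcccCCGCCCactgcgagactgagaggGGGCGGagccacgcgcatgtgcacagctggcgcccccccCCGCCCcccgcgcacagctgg
Fbn1: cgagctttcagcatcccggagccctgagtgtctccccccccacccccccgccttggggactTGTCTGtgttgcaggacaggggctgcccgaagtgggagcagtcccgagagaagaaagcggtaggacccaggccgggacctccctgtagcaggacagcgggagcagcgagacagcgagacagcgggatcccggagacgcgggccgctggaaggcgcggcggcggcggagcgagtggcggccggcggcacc
Sparcl1: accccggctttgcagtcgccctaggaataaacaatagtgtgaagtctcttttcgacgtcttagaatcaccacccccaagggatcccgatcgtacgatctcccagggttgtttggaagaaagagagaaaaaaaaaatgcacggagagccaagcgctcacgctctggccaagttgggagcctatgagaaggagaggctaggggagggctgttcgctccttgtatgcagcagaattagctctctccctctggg
Lamb1: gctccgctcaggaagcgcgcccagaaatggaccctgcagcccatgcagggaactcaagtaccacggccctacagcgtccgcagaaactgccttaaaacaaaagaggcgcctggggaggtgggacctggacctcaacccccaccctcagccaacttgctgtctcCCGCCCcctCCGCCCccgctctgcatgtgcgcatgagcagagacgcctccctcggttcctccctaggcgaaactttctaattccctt
Lama5: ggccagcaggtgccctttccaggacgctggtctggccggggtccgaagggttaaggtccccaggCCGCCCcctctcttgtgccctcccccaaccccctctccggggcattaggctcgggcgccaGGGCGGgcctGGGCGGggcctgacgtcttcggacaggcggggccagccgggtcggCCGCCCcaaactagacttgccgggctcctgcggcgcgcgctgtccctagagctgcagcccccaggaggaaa
Postn: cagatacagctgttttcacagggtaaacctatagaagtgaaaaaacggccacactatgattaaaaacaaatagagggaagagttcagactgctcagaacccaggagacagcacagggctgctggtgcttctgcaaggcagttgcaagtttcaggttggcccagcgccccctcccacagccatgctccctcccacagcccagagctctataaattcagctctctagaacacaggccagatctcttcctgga
These windows lie at chr6:52308124-52308373 (Pxdn, plus strand), chr3:133203391-133203640 (Fbn1, minus), chr14:5937234-5937483 (Sparcl1, plus), chr6:53562846-53563095 (Lamb1, plus), chr3:187695975-187696224 (Lama5, minus) and chr2:140677811-140678060 (Postn, plus). CAGACA was found in 1 copy in the Pxdn and the Fbn1 window. GGGCGG was found 3 times in Pxdn, 2 times in Lamb1 and 4 times in Lama5, and Sparcl1 and Postn held no match to any of the 3. Across the 35 promoters 25.7% held CAGACA, 5.71% TGANTCA and 62.9% GGGCGG. Among all 33469 promoters of the table the shares were 17.2%, 6.34% and 30.5%. Base composition differed too, with a median of 61.6% G and C in the members' windows and 51.2% in all.

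In CKD 6 genes rose and none was called lower. These were Pxdn, Fn1, Fbn1, Emilin1, Sparcl1 and Mgp, of which Pxdn belongs to the basement membrane and the other 5 to the interstitium. Of the 45 genes that passed the filter on low counts, 6 (13.3%) were called higher, where 2.67% of all 15371 genes tested were, and 0 were called lower by edgeR, where 1.15% of all genes were; in either direction 3.82% of all genes passed. At an unadjusted p under 0.05, 19 of the 45 were higher and 1, Nid2, lower, against 13.5% and 10.3% of all genes. A positive fold change was found in 36 of the 45 (49.5% of all genes), and a fold of at least 2 upward in 22 (12.2% of all genes). The 3 CKD values lay above the 3 Sham values in 22 of the 45 genes (48.9%, against 18.8% of all genes) and below them in 1 (against 12.4%). The median log2 fold change was 0.995 over the 45 and -0.008 over all genes. Mfap5 alone did not pass the filter, with 0, 8 and 2 counts in CKD 1, 2 and 3 and 8, 2 and 13 in Sham 1, 2 and 3. Postn passed the filter through its CKD libraries only and 6 others with 1 or 2 Sham libraries, so these counts and medians describe the genes and support nothing. None of the 6 calls held without CKD 1, CKD 2, Sham 2 or Sham 3, when edgeR called 0 of the 45 genes (15, 17, 21 and 16 were higher at an unadjusted p under 0.05, against 8.81%, 9.09%, 14% and 11.2% of all genes in the same fits). Over all genes edgeR then called 0 higher and 0 lower without CKD 1 and without CKD 2, 0 higher and 2 lower without Sham 2, and 1 higher and 6 lower without Sham 3. The log2 fold changes over the 6 libraries left out ran from 2.24 to 2.63 for Pxdn, 1.71 to 2.31 for Fn1, 2.13 to 2.96 for Fbn1, 1.30 to 1.78 for Emilin1, 0.97 to 1.36 for Sparcl1 and 1.77 to 2.36 for Mgp. Without CKD 3 edgeR called 5 genes, 4 of them among the 6, and without Sham 1 it called 9, 5 of them among the 6. On all libraries DESeq2 called 16 higher and 1 lower and limma-voom 2 higher.

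**Figure D1:**
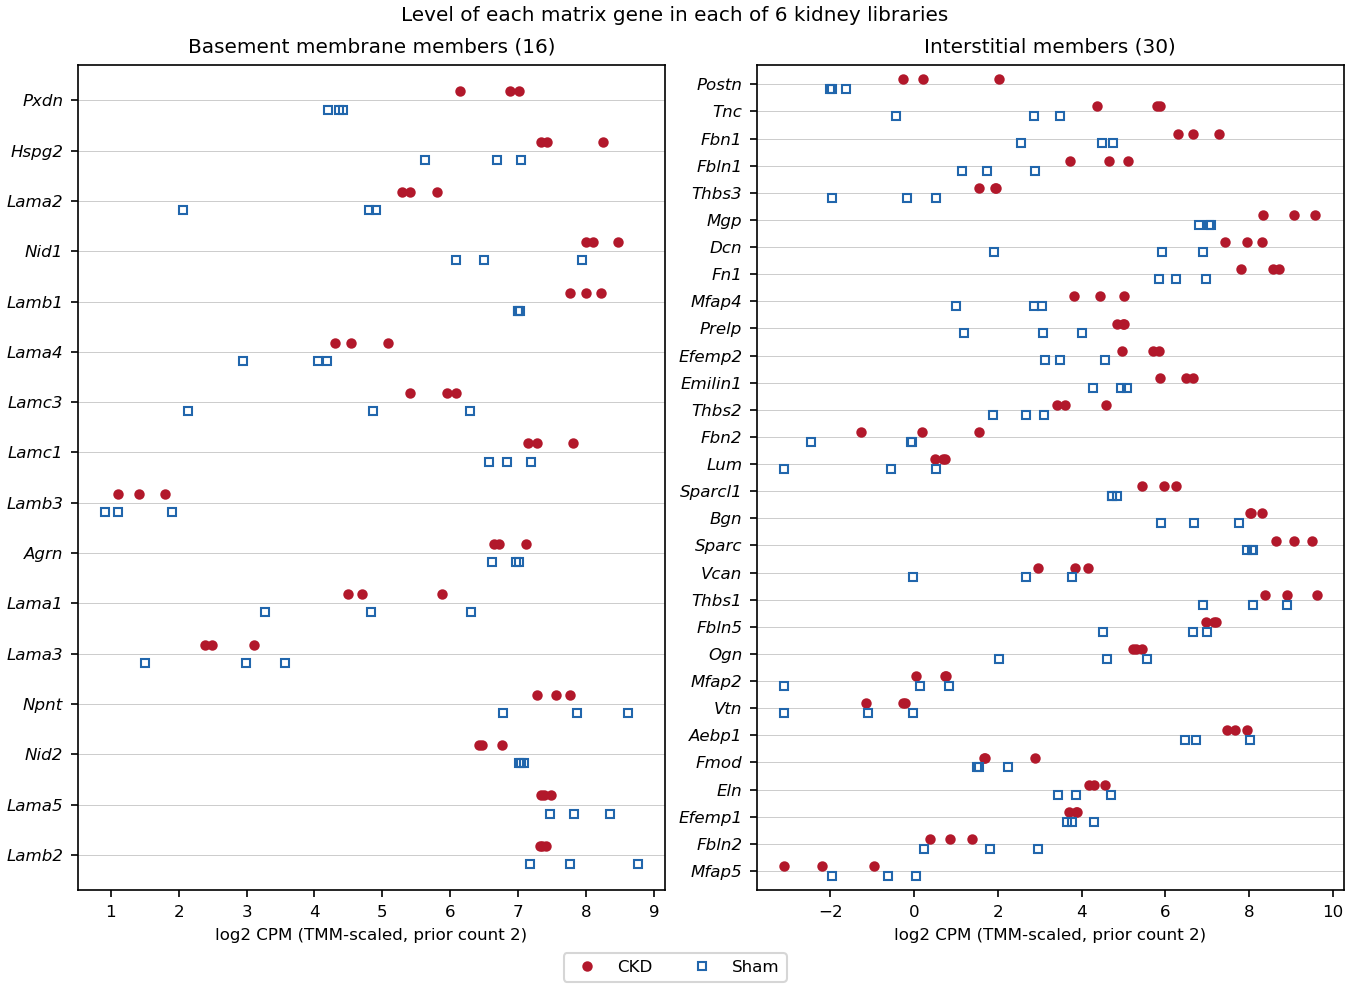
Level of every gene in each library, as log2 CPM with a prior count of 2, for 16 basement membrane and 30 interstitial genes, sorted by fold change with the highest on top. Filled red circles are the 3 CKD libraries and open blue squares the 3 Sham libraries; in 22 of the 45 tested genes all red circles lie to the right of the blue squares.

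More of the interstitial than of the basement membrane genes were higher in CKD. Of 29 interstitial genes tested, 27 had a positive fold change, 5 rose, and 16 had CKD values all above Sham. Of 16 basement membrane genes, 9 had a positive fold change, 1 rose, and 6 had CKD values all above Sham. Over all genes tested 49.5% had a positive fold change, 2.67% were called higher and 18.8% had CKD values all above Sham. The same shares were 93.1%, 17.2% and 55.2% for interstitial genes and 56.2%, 6.25% and 37.5% for basement membrane genes. The median log2 fold change was 1.17 for interstitial and 0.33 for basement membrane genes, a difference of 0.84 that ran from 0.60 without Sham 3 to 1.23 without Sham 2. Without Sham 2 the basement membrane median was 0.069. Since the genes were chosen with results of these data known, this difference was given no test. Counting Fbln1, Fbln2 and Sparc as basement membrane, where these proteins also occur, gave a difference of 0.65.

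**Figure D2:**
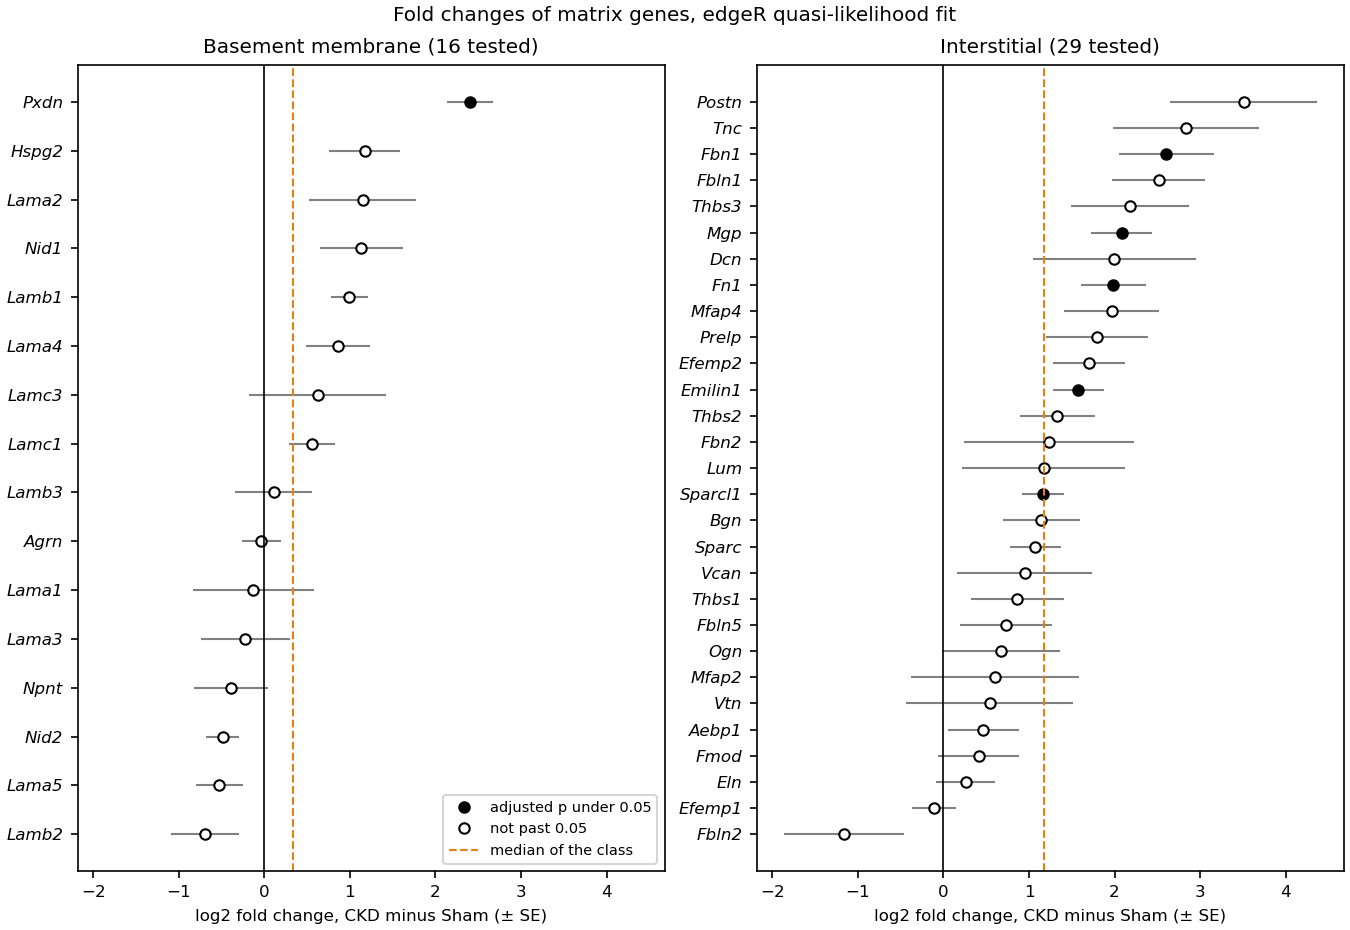
Log2 fold change of CKD over Sham with its standard error for each tested gene, with basement membrane genes on the left and interstitial genes on the right. Filled points passed an adjusted p of 0.05, and the dashed line is the median of the class, at 0.33 on the left and 1.17 on the right.

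The summed level of the 30 interstitial genes was 3673, 3920 and 2528 CPM in CKD 1, 2 and 3, against 1606, 919 and 1620 CPM in Sham 1, 2 and 3. The groups did not overlap. The 16 basement membrane genes summed to 2271, 1816 and 1752 CPM in CKD 1, 2 and 3, against 1468, 1834 and 1557 CPM in Sham 1, 2 and 3, and there the groups overlapped, with Sham 2 above CKD 2 and CKD 3. The ratio of the interstitial to the basement membrane sum was 1.62, 2.16 and 1.44 in CKD 1, 2 and 3 and 1.09, 0.501 and 1.04 in Sham 1, 2 and 3. The ratio was highest in the 3 CKD libraries, near 1 in Sham 1 and Sham 3, and lowest in Sham 2. Markers of fibroblasts and mural cells were also higher in CKD, with 8 of 10 fold changes positive, 0 called, and summed levels of 454 to 523 CPM in CKD and 245 to 321 CPM in Sham. CKD 2 and Sham 3 had the lowest marker sums of their groups (454 and 245 CPM). These libraries had the highest interstitial sums, with Sham 3 and Sham 1 close (1620 and 1606 CPM), and also the highest Thbs1 of their groups. Pdgfra, a fibroblast receptor, had 142, 130 and 108 CPM in CKD 1, 2 and 3, against 83.2, 8.17 and 38.5 CPM in Sham 1, 2 and 3. Dcn, Bgn and Prelp had the Sham order of Pdgfra, highest in Sham 1 and lowest in Sham 2, and Thbs1 and Aebp1 did not. The sum of the 10 fibroblast and mural cell markers did not have that order either, with 321, 262 and 245 CPM in Sham 1, 2 and 3. Macrophage markers summed to 227 to 472 CPM in CKD and 60.02 to 144 CPM in Sham (3 of 8 called). Lymphocyte markers summed to 25.1 to 41.3 CPM in CKD and 7.41 to 8.40 CPM in Sham (3 of 7 tested called). Of these 3, Mzb1 passed the filter through its CKD libraries only (8, 4 and 6 counts in Sham 1, 2 and 3). Cd3g passed it with 1 Sham library, so this count of calls supports nothing. Over all genes tested 2.67% were called higher. Adipose markers summed to 11.6 to 24.9 CPM in CKD and to 145, 37.9 and 13.1 CPM in Sham 1, 2 and 3. Of the Sham 1 sum, Cidec alone gave 135 CPM. Adipoq had 9.60, 16.3 and 4.58 CPM in Sham 1, 2 and 3, and Plin1 and Lep had 0 counts in every Sham library. Endothelial markers were not higher in CKD, with 3 of 8 fold changes positive and 0 called. Their sums were 473.6 to 621.9 CPM in CKD and 520.8 to 679.5 CPM in Sham. The part of these cell types in the result was not tested.

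**Figure D3:**
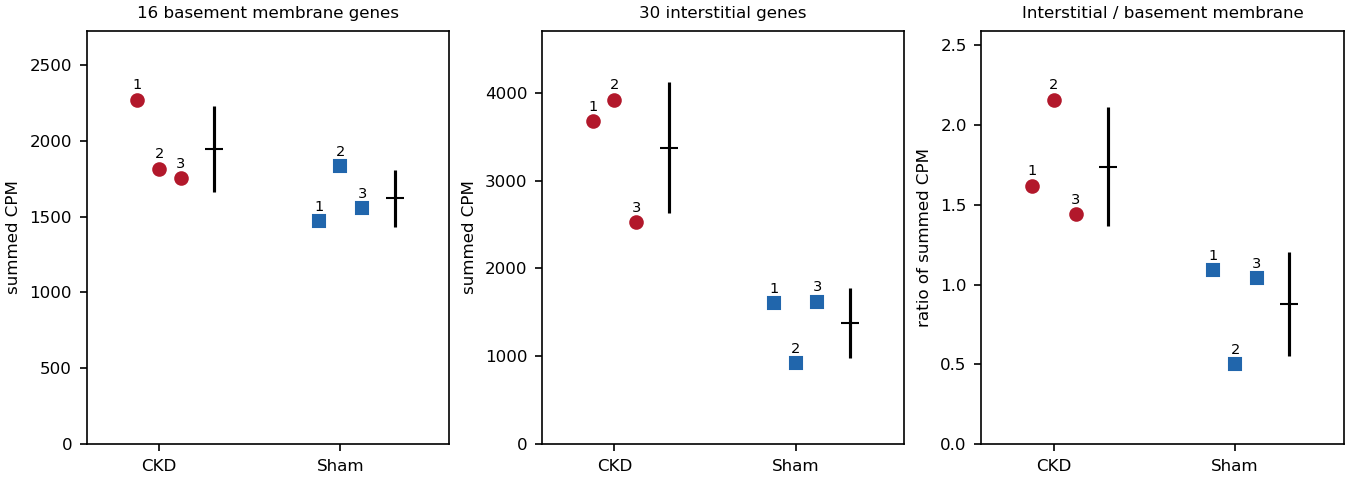
Summed CPM of the 16 basement membrane genes, of the 30 interstitial genes, and the ratio of the second sum to the first, in CKD and Sham; points are libraries with their replicate number, and the black mark is the mean with its SD (n = 3 per group). The interstitial sums of CKD, 2528 to 3920 CPM, lie above those of Sham, 919 to 1620 CPM, while the basement membrane sums overlap.

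Adhesive glycoproteins. Fn1, fibronectin, the scaffold on which other matrix proteins assemble and a ligand of integrins, had 421, 377 and 224 CPM in CKD 1, 2 and 3, against 125, 57.0 and 76.4 CPM in Sham 1, 2 and 3. All CKD values were above all Sham values. Its log2 fold change was 1.99 ± 0.38 (edgeR adjusted p = 0.0415). Vtn, vitronectin, a plasma protein made mainly by the liver, had 7, 15 and 14 counts in CKD and 13, 0 and 5 counts in Sham, and the groups overlapped.

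Elastic fibres and microfibrils. Of 11 tested genes 2 rose (18.2%, against 2.67% of all genes tested), Fbn1 and Emilin1. Fbn1, fibrillin-1, the backbone of microfibrils that also store latent TGF-beta, had 154, 101 and 78.2 CPM in CKD 1, 2 and 3, against 26.9, 5.73 and 22.2 CPM in Sham 1, 2 and 3. Emilin1, a glycoprotein where elastin meets the microfibril, had 100, 89.7 and 58.8 CPM in CKD 1, 2 and 3, against 30.7, 33.5 and 19.1 CPM in Sham 1, 2 and 3. In both genes the lowest CKD library, CKD 3, stood above the highest Sham library. Their log2 fold changes were 2.60 ± 0.56 and 1.58 ± 0.30 (edgeR adjusted p = 0.0492 and 0.0413). For Fbn1 the adjusted p missed the threshold with RLE size factors (0.0508), a CPM filter (0.0502) or mitochondrial genes removed (0.0513) and in limma-voom (0.054), and over the libraries left out it ran from 0.0356 to 0.183.

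Fbln1, fibulin-1, which binds fibronectin and basement membrane proteins, had 34.3, 24.9 and 13.1 CPM in CKD 1, 2 and 3, against 7.27, 2.096 and 3.24 CPM in Sham 1, 2 and 3, without overlap (log2 fold change 2.52 ± 0.54, edgeR adjusted p = 0.0503). Efemp2, fibulin-4, needed for elastic fibre assembly, had 57.2, 51.8 and 31.1 CPM in CKD 1, 2 and 3, against 11.1, 8.66 and 23.3 CPM in Sham 1, 2 and 3. Mfap4, a microfibril-associated protein, had 32.0, 13.9 and 21.6 CPM in CKD 1, 2 and 3, against 8.20, 1.89 and 7.11 CPM in Sham 1, 2 and 3. Neither overlapped between groups, and neither passed (edgeR adjusted p = 0.0657 and 0.0857). Fbln5, fibulin-5, was the elastic fibre gene with the highest level per length, averaging 51.2 CPM per kb in CKD and 30.9 CPM per kb in Sham. It had 142, 126 and 148 CPM in CKD 1, 2 and 3, against 128, 22.8 and 100 CPM in Sham 1, 2 and 3, with Sham 2 far below the rest and Sham 1 above CKD 2, with a log2 fold change of 0.73 that was 0.24 when Sham 2 was left out.

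Eln, elastin, the core of the elastic fibre, had 23.5, 19.5 and 18.03 CPM in CKD 1, 2 and 3, against 14.3, 25.9 and 10.7 CPM in Sham 1, 2 and 3, and the groups overlapped (log2 fold change 0.26 ± 0.35, edgeR adjusted p = 0.689). Efemp1, fibulin-3, had log2 fold change -0.11 (0.32 with library totals alone). Fbln2, fibulin-2, had the lowest fold change of all 45 genes, -1.17 ± 0.70 (edgeR adjusted p = 0.354), with 1.69, 1.19 and 2.51 CPM in CKD 1, 2 and 3 and 1.07, 7.69 and 3.38 CPM in Sham 1, 2 and 3. Fbn2 and Mfap2, which encode fibrillin-2 and a microfibril glycoprotein, had 0 to 58 counts per library and overlapped between groups.

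Matricellular proteins. All 7 fold changes were positive (the lowest 0.86, for Thbs1), 1 gene rose, and 6 of the 7 had CKD values all above Sham. Over all genes tested 49.5% were positive, 2.67% were called higher and 18.8% had CKD values all above Sham. Sparcl1, a relative of SPARC, had 43.1, 75.6 and 62.7 CPM in CKD 1, 2 and 3, against 26.2, 26.1 and 28.8 CPM in Sham 1, 2 and 3 (log2 fold change 1.16 ± 0.24, edgeR adjusted p = 0.0483). The Sham values lay within 3 CPM of each other. Sparcl1 missed the threshold with RLE size factors (adjusted p = 0.0524) or mitochondrial genes removed (0.0544) in edgeR and in limma-voom (0.0624), and over the libraries left out its edgeR adjusted p ran from 0.0522 to 0.203. Sparc, a collagen-binding protein and the most abundant of the group per length (187 CPM per kb in CKD, 88.7 CPM per kb in Sham), had 722, 537 and 400 CPM in CKD 1, 2 and 3, against 270, 273 and 245 CPM in Sham 1, 2 and 3. It did not pass (log2 fold change 1.07 ± 0.30, edgeR adjusted p = 0.0834).

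Postn and Tnc had the largest fold changes of the whole set, and Postn rested on few Sham counts. Tnc, tenascin-C, a protein of healing wounds, had 1160, 1178 and 399 counts in CKD 1, 2 and 3, against 166, 9 and 102 counts in Sham 1, 2 and 3 (log2 fold change 2.84 ± 0.85, edgeR adjusted p = 0.098). Postn, periostin, which links collagen to other matrix proteins, had 82, 21 and 14 counts in CKD 1, 2 and 3, against 2, 2 and 3 counts in Sham 1, 2 and 3. The summed counts gave a ratio of 12 after scaling, with a 95% counting interval of 5.67 to 30.6 that covers counting error only. Postn's fitted log2 fold change of 3.51 ± 0.86 (edgeR adjusted p = 0.0653) was 2.40 without CKD 1.

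Thrombospondins regulate cell attachment and vessel growth. Thbs2 had 23.6, 11.97 and 10.5 CPM in CKD 1, 2 and 3, against 8.40, 6.29 and 3.59 CPM in Sham 1, 2 and 3, and Thbs3 was lower in level, with 55 to 78 counts in CKD and 2 to 20 counts in Sham. Both stood above Sham in all CKD libraries without passing (edgeR adjusted p = 0.122 and 0.11). Thbs1, which encodes an activator of latent TGF-beta, had 474, 785 and 329 CPM in CKD 1, 2 and 3, against 273, 120 and 480 CPM in Sham 1, 2 and 3, and the groups overlapped (edgeR adjusted p = 0.373).

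Mgp, Aebp1 and versican. Mgp, matrix Gla protein, an inhibitor of calcification, was the most abundant gene of the set per length, averaging 540 CPM per kb in CKD and 127 CPM per kb in Sham. It had 538, 753 and 323 CPM in CKD 1, 2 and 3, against 137, 132 and 111 CPM in Sham 1, 2 and 3, well apart. Its log2 fold change was 2.09 ± 0.36 (edgeR adjusted p = 0.0367). Aebp1, a collagen-binding carboxypeptidase-like protein, had 178, 200 and 246 CPM in CKD 1, 2 and 3, against 107, 88.8 and 257 CPM in Sham 1, 2 and 3, with Sham 3 above every CKD library. Vcan, versican, a large chondroitin sulfate proteoglycan, had 14.3, 17.7 and 7.68 CPM in CKD 1, 2 and 3, against 0.867, 13.4 and 6.26 CPM in Sham 1, 2 and 3. The log2 fold changes of Aebp1 and Vcan, 0.46 and 0.95, had standard errors of 0.42 and 0.79.

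Small leucine-rich proteoglycans. All 6 had positive fold changes (0.41 to 1.998) and none was called by edgeR (2 at an unadjusted p under 0.05; DESeq2 called Prelp and limma-voom none). Dcn, decorin, which binds collagen fibrils and TGF-beta, had 245, 316 and 171 CPM in CKD 1, 2 and 3, against 119, 3.63 and 59.9 CPM in Sham 1, 2 and 3. Bgn, biglycan, its closest relative, had 314, 264 and 258 CPM in CKD 1, 2 and 3, against 216, 59.4 and 103 CPM in Sham 1, 2 and 3. Prelp, a proteoglycan that ties basement membranes to connective tissue, had 28.4, 32.4 and 31.4 CPM in CKD 1, 2 and 3, against 16, 2.17 and 8.31 CPM in Sham 1, 2 and 3. In these 3 genes the CKD libraries were all above Sham, and log2 CPM spread more within Sham than within CKD. In CPM Dcn spread more within CKD (SD 72.5, against 57.9 in Sham). Their log2 fold changes were 1.998 ± 0.95, 1.14 ± 0.45 and 1.80 ± 0.60 (edgeR adjusted p = 0.248, 0.177 and 0.124).

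Ogn, osteoglycin, had 39.0, 37.4 and 43.6 CPM in CKD 1, 2 and 3, against 47.2, 3.98 and 24.1 CPM in Sham 1, 2 and 3, so Sham 1 was above every CKD library. Fmod, fibromodulin, overlapped between groups and reached 142 counts in CKD 3 against 39 to 69 in the other 5 libraries. Lum, lumican, a fibril regulator, had 26 to 32 counts in CKD and 0 to 20 in Sham, but overlapped after scaling, with 1.29 CPM in CKD 2 and 1.33 CPM in Sham 1 (edgeR adjusted p = 0.493).

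Sham 2 was the lowest Sham library in all 6 proteoglycans of this family, in 18 of 29 interstitial and in 6 of 16 basement membrane genes, that is 62.1% and 37.5%, beside 37.9% of all genes tested. The library also had the lowest Sham levels of 7 of 7 fibrillar collagen chains (35.4 summed CPM, against 302 in Sham 1 and 132 in Sham 3). Of the 10 fibroblast and mural cell markers it was the lowest Sham library in only 3 (30%), Pdgfra (8.17 CPM) among them. Without Sham 2 the log2 fold changes of Dcn, Prelp, Bgn and Ogn were 1.40, 1.29, 0.76 and 0.12, and without Sham 1 they were 2.91, 2.52, 1.74 and 1.48. Bgn and Prelp passed without Sham 1 (edgeR adjusted p = 0.0275 and 0.0369; over the libraries left out from 0.0275 to 0.417 and from 0.0369 to 0.311).

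**Figure D4:**
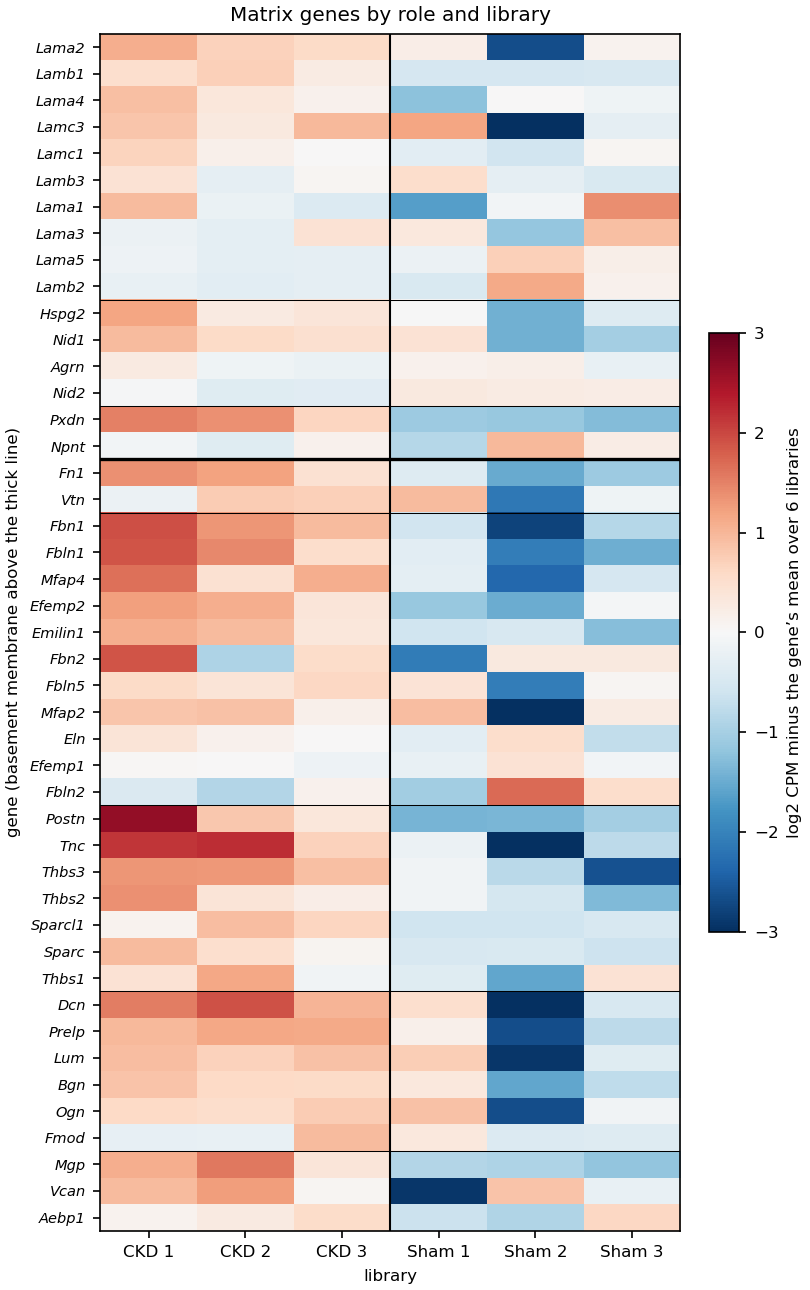
Log2 CPM of each tested gene minus its mean over the 6 libraries, grouped by role, with basement membrane roles above the thick line and interstitial roles below it; the colour scale is limited to -3 and 3. The columns of CKD 1 to CKD 3 are mostly red in the interstitial roles, and Sham 2 is the bluest Sham column in 6 of 6 small leucine-rich proteoglycans.

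Basement membrane. Fold changes of the laminin chains had both signs, and none of the 10 passed in edgeR (1, Lamb1, at an unadjusted p under 0.05; DESeq2 called Lamb1 and limma-voom none). Lamb1, the beta chain widespread in development, had 255, 299 and 216 CPM in CKD 1, 2 and 3, against 128, 128 and 131 CPM in Sham 1, 2 and 3. The Sham values were nearly equal, all CKD values were above them, and the log2 fold change was 0.995 ± 0.22 (edgeR adjusted p = 0.053). Lamb2, the beta chain of the mature glomerular basement membrane, had 170, 160 and 164 CPM in CKD 1, 2 and 3, against 145, 435 and 217 CPM in Sham 1, 2 and 3, and overlapped between groups (log2 fold change -0.69 ± 0.40, edgeR adjusted p = 0.334). Per length, Lamb1 made up 55.3%, 60.8% and 52.3% of the reads of the 3 beta chains in CKD 1, 2 and 3, against 42.0%, 19.9% and 33.5% in Sham 1, 2 and 3. Lamb1 thus exceeded Lamb2 in every CKD library and in no Sham library.

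Among alpha chains, Lama5, the partner of Lamb2 in the mature glomerular basement membrane, had 179, 162 and 166 CPM in CKD 1, 2 and 3, against 177, 328 and 226 CPM in Sham 1, 2 and 3 (-0.53 ± 0.28, edgeR adjusted p = 0.289; its log2 fold change was -0.099 under scaling by totals). Lama4, the alpha chain of vessels, had 33.8, 23.0 and 19.6 CPM in CKD 1, 2 and 3, against 7.60, 18.1 and 16.5 CPM in Sham 1, 2 and 3, and Lama2, the chain of muscle and mesenchyme, 55.9, 42.3 and 38.8 CPM in CKD 1, 2 and 3, against 29.9, 4.05 and 27.9 CPM in Sham 1, 2 and 3. Both had all CKD values above Sham without passing (edgeR adjusted p = 0.216 and 0.305). Lama4 took 13.2% to 17.0% of the alpha chain reads per length in CKD and 5.88% to 8.58% in Sham. Lama5 took 47.3% to 58.7% in CKD and 58.2% to 81.8% in Sham, an overlap through Sham 3. Lama1, an alpha chain of early basement membranes, ranged from 22.4 to 58.4 CPM in CKD and 9.54 to 79.2 CPM in Sham, and its fold change changed sign with the scaling (-0.13 with TMM, 0.28 with library totals alone).

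Lamc1, the gamma chain of most laminins, had 225, 155 and 142 CPM in CKD 1, 2 and 3, against 114, 95.0 and 146 CPM in Sham 1, 2 and 3, with Sham 3 above CKD 3. Lamc3 had 61.8, 42.2 and 67.6 CPM in CKD 1, 2 and 3, against 78.3, 4.26 and 28.9 CPM in Sham 1, 2 and 3, with a log2 fold change of 0.62 that was 0.049 when Sham 2 was left out. Lama3 and Lamb3, chains of the epithelial anchoring laminin, were low, with 103 to 166 and 41 to 70 counts in CKD, 39 to 167 and 25 to 54 counts in Sham, and overlapping groups.

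Podocyte markers varied within Sham as the glomerular laminins did. Their summed level over 7 genes was 465, 361 and 641 CPM in CKD 1, 2 and 3, against 210.2, 688 and 634 CPM in Sham 1, 2 and 3, with 0 of 7 called by edgeR (1 higher and 0 lower at an unadjusted p under 0.05). Sham 1 was lowest and Sham 2 highest, and the same order held for Lama5, Lamb2 and Npnt. Npnt, nephronectin, a ligand of integrin alpha 8, had 188, 156 and 218 CPM in CKD 1, 2 and 3, against 110, 391 and 234 CPM in Sham 1, 2 and 3, with a log2 fold change of -0.39 (0.041 under scaling by totals). The part of podocyte content in these values was not tested.

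**Figure D5:**
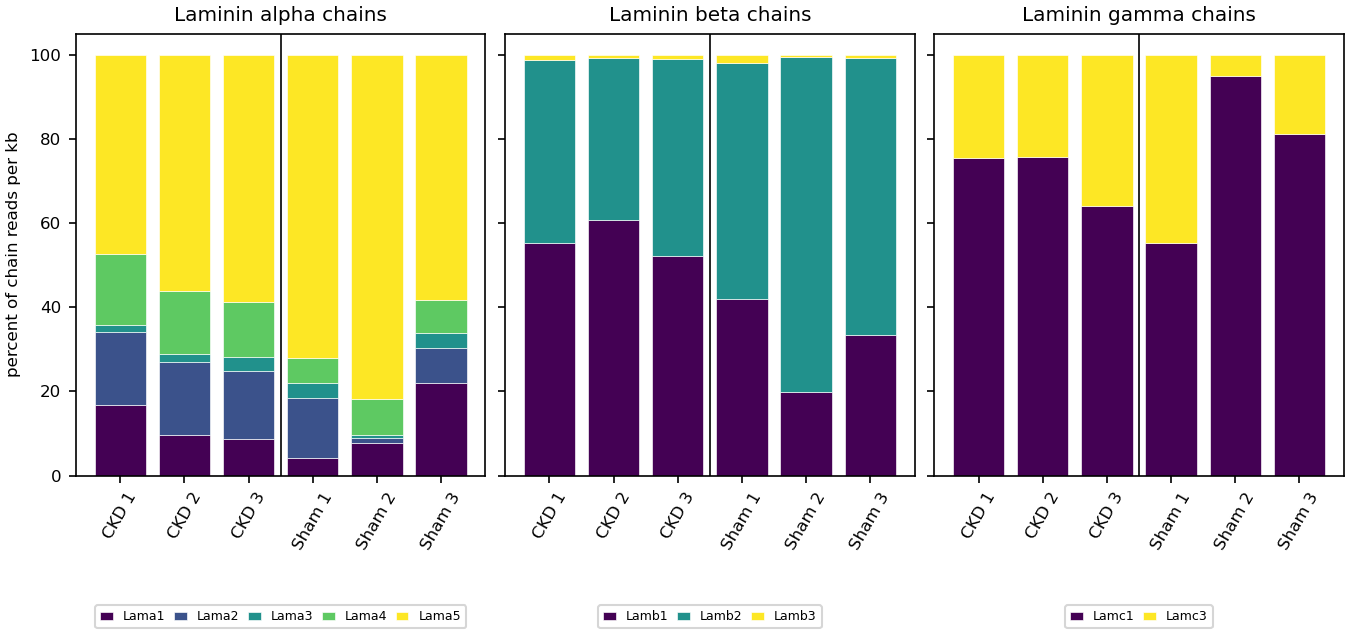
Share of each laminin chain in the summed reads per kilobase of its chain type (alpha, beta, gamma) in percent, for CKD 1 to 3 left of the line and Sham 1 to 3 right of it. Lamb1 makes up 52.3% to 60.8% of the beta chains in CKD and 19.9% to 42.0% in Sham.

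Nidogens and heparan sulfate proteoglycans had fold changes of both signs. Nid1, nidogen-1, which bridges laminin and type IV collagen, had 355, 274 and 257 CPM in CKD 1, 2 and 3, against 246, 67.7 and 90.6 CPM in Sham 1, 2 and 3, all CKD above Sham (log2 fold change 1.13 ± 0.48, edgeR adjusted p = 0.207). Its relative Nid2 had 108, 85.9 and 88.3 CPM in CKD 1, 2 and 3, against 136, 131 and 129 CPM in Sham 1, 2 and 3, and was the 1 gene of the set with all CKD values below Sham (log2 fold change -0.49 ± 0.19, edgeR adjusted p = 0.177). Under scaling by library totals the Nid2 groups overlapped and the fold change was -0.064. Nid1 passed without Sham 1 (edgeR adjusted p = 0.0215; over the libraries left out from 0.0215 to 0.473).

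Hspg2, perlecan, had 305, 162 and 172 CPM in CKD 1, 2 and 3, against 132, 49.2 and 103 CPM in Sham 1, 2 and 3, without overlap (log2 fold change 1.17 ± 0.42, edgeR adjusted p = 0.144). Agrn, agrin, the main heparan sulfate proteoglycan of the glomerular basement membrane, had 138, 105 and 99.8 CPM in CKD 1, 2 and 3, against 125, 129 and 97.8 CPM in Sham 1, 2 and 3, with overlap (log2 fold change -0.036 ± 0.22; 0.39 with library totals alone).

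Pxdn was the basement membrane gene that rose. It encodes peroxidasin, the enzyme that forms sulfilimine crosslinks in type IV collagen, and had 129, 118 and 70.8 CPM in CKD 1, 2 and 3, against 21.3, 20.5 and 18.2 CPM in Sham 1, 2 and 3. Every CKD library held over 3 times the highest Sham value. The log2 fold change of 2.40 ± 0.27 had the smallest p of the set (edgeR adjusted p = 0.0278; 0.0179 to 0.148 over the libraries left out).

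Other matrix genes and receptors. Of 38 tested genes of 48 other matrix glycoproteins and proteoglycans, 3 rose (7.89%) and 0 fell in edgeR (1 lower at an unadjusted p under 0.05). Over all genes tested 2.67% were called higher and 1.15% lower. The median log2 fold change of the 38 was 0.39. The risers were Ltbp2, a microfibril-bound relative of the latent TGF-beta binding proteins, Spp1, osteopontin, and Ntn4, a netrin that binds laminin. Ltbp2 averaged 79.1 CPM in CKD and 6.198 CPM in Sham (log2 fold change 3.67 ± 0.62, edgeR adjusted p = 0.0365), and Ntn4 73.3 CPM in CKD and 35.9 CPM in Sham (1.03 ± 0.22, edgeR adjusted p = 0.0493). Spp1 averaged 6219 CPM in CKD and 283 CPM in Sham (4.46 ± 0.93, edgeR adjusted p = 0.0482). Of 6 type IV collagen chains 1 rose, Col4a6, at 10.99 CPM in CKD and 2.55 CPM in Sham (2.11 ± 0.38, edgeR adjusted p = 0.0394). Of 7 fibrillar collagen chains 1 rose, Col1a1, at 205 CPM in CKD and 27.4 CPM in Sham (2.90 ± 0.62, edgeR adjusted p = 0.0493). All 7 were higher at an unadjusted p under 0.05 in edgeR and had CKD values all above Sham, against 13.5% and 18.8% of all genes tested. Col5a3, with 8, 0 and 6 counts in Sham 1, 2 and 3, passed the filter through its CKD libraries only. The count of 7 therefore describes these genes and supports nothing. Of 22 matrix receptors 1 rose, the hyaluronan receptor Cd44 (2.30 ± 0.36, edgeR adjusted p = 0.0323), and 19 had positive fold changes. The median of the 22 was 0.38, with Itga2 past the filter through its CKD libraries only. Sdc4 had CKD values all below Sham (-0.905 ± 0.298, edgeR adjusted p = 0.121). The medians were 0.85 for type IV and 2.18 for fibrillar collagens.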

How the data were processed

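Whole-number raw counts per gene were deposited by the authors in 1 table with a column per library, and 0 columns belonged to other series. Total RNA was extracted with TRIzol, per the labels' protocols. The submitters' processing notes name fastp 0.20.1, HISAT2 2.1.0, HTSeq 0.11.2 and Rnor_6.0 without roles. No strand setting is named, so a gene and an antisense neighbour may share reads. Gene lengths are those deposited.

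Here genes were kept by filterByExpr (minimum count 10, minimum total 15; 15371 of 31368) and scaled by TMM (factors 1.13 to 1.19 in CKD and 0.837 to 0.893 in Sham). The quasi-likelihood test compared CKD with Sham, with no covariate (edgeR 4.0.16, R 4.3.3; biological coefficient of variation 37.5%) with a threshold of 0.05. The model was tested on simulated data. No replicate pair agreed within sampling noise (chi-square over its degrees of freedom was 32.9 to 356). Alternatives were other scalings and filters, DESeq2 1.42.0, limma-voom (limma 3.58.1), a replicate block, mitochondrial genes removed and each library left out.

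The members and lists were chosen with earlier results of these data known. Genes described in full were those called, the 2 smallest p and the most abundant of each role, and negative fold changes with an unadjusted p under 0.05; the other members given with all values were chosen after their values were seen. A marker gene is not reported here and was left out of the marker sums.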

Additional observations from a re-analysis of the deposited data

How the results depend on the processing

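The 6 members called higher became 17 with library totals alone, 16 in DESeq2, 2 in limma-voom (Mgp and Pxdn) and 0 with a replicate block, and ran from 0 to 9 over the libraries left out. The members called lower were 0 in each of these but DESeq2, with 1. Over all genes the 411 higher and 176 lower calls became 2047 higher with library totals alone, 1379 and 1118 in DESeq2, 120 and 75 in limma-voom and 4 and 6 with the replicate block, and ran from 0 to 789 and from 0 to 922 over the libraries left out. The labels do not say whether the replicate numbers pair the samples. Deviations of same-numbered libraries from their group means correlated at -0.206, 0.005 and -0.157. With only 3 libraries in each group mean, these values cannot decide it. The basement membrane median was 0.76 with library totals alone and ran from 0.069 to 0.54 over the libraries left out, and its distance from the interstitial median ran from 0.60 to 1.23. With library totals alone 0 members had CKD all below Sham. These 5 fold changes turned positive with library totals alone: Lama1 0.28, Lama3 0.18, Agrn 0.39, Npnt 0.041 and Efemp1 0.32. Lama1 was 0.24 in limma-voom and 0.15 with the replicate block. Fold changes that turned sign with a library left out ran from -0.68 to 0.83 (Lama1), -0.65 to 0.22 (Lama3), -0.15 to 0.44 (Lamb3), -0.22 to 0.058 (Agrn), -0.79 to 0.088 (Npnt), -0.069 to 1.70 (Vtn), -0.055 to 0.66 (Eln), -0.28 to 0.075 (Efemp1), -0.019 to 1.41 (Mfap2) and -0.12 to 0.66 (Fmod). None of these 10 was called in any of the settings. The cause of these shifts was not tested.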
